A study of Mus musculus with 5 samples.

Results

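The genes of the core spliceosome and of its SR and hnRNP regulators were described in mouse pancreatic cancer cells sorted by autophagy flux. They were taken by symbol from the deposited expression table: the numbered Srsf genes, all Hnrnp genes, the Sf3a and Sf3b subunits, the Snrp genes and the U2af genes, without symbols marked as pseudogenes. This gave 56 genes of 52459 rows, with 11 SR, 20 hnRNP, 9 SF3a or SF3b, 13 Snrp and 3 U2AF genes. The AThi population (autophagy-high, 2 libraries) was set against the ATlo population (autophagy-low, 3 libraries). All 5 libraries came from the HY15549 line, of C57BL/6 background and carrying the GFP-LC3-RFP reporter, in which the ratio of green to red signal falls as autophagy proceeds. The line was grown as organoids in Matrigel and dissociated before the sort, and since the labels do not say whether the replicates were separate cultures, the p-values cover only library-to-library spread, which may be technical.

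The spliceosome removes introns from pre-mRNA. Most of its small nuclear ribonucleoproteins (snRNPs) carry a ring of Sm proteins on an RNA, the U1 snRNP and U2AF mark the ends of the intron, and the SF3a and SF3b complexes hold the U2 snRNP on the branch point. SR proteins bind exons through RNA recognition motifs and attract the machinery with their arginine- and serine-rich tails, while hnRNP proteins coat the nascent RNA and often oppose them. Many SR and hnRNP genes also limit their own messenger RNA through alternative exons that lead to decay, and levels summed over a gene do not show which isoform was made.

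Levels are in FPKM, that is, fragments for each kilobase of a transcript after scaling to depth. The gene lengths used and the rule for multimapping reads are not known, so levels of different genes compare only roughly. Of the 56 genes, 53 had a mean of at least 1 FPKM and were tested with limma on log2(FPKM + 0.5), with p-values adjusted over all 11397 genes tested. A gene is said to have risen or fallen in AThi where the adjusted p was under 0.05, and fold changes are given as log2 values, AThi minus ATlo, with their standard error. The other 3 are Srsf12, Snrpn and Snrpert. Srsf12, an SR gene, was at 0.03 FPKM in 1 ATlo library and listed at 0 in the other libraries. Snrpn, whose product replaces SmB mainly in neurons and whose locus is imprinted, was listed at 0 in all 5 libraries, as were Snurf and Snhg14 of the same locus, both looked up after that value was seen. Snrpert, which GENCODE annotates as a processed pseudogene, was at 0.13 and 0.24 FPKM in AThi and between 0.09 and 0.50 FPKM in ATlo.

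Nearly all of these genes were lower in AThi. Of the 53 tested, 44 (83.0%) fell, 1 rose and 8 did not pass. Among all genes tested, 29.4% fell and 22.2% rose, 51.6% in all. That balance depends on scaling, since 3039 of all genes rose and 2903 fell when libraries were centred on the median gene, where 40 members fell and 1 rose. Of the 44 falls, 31 passed in every fit that left out 1 library, as did the rise. The median log2 fold change was -0.44 over the members and -0.03 over all genes tested. The changes were moderate, and only Snrpa1 fell by more than 1 on the log2 scale. The library values of AThi lay below those of ATlo without overlap in 48 of the 53 genes and above them in 3, against 38.4% and 31.9% of all genes tested, 70.3% in either direction. The 56 genes together held 0.593% and 0.580% of the summed FPKM in the AThi libraries, against 0.745%, 0.815% and 0.843% in the ATlo libraries. In these bulk populations, fewer cells of a kind and less RNA per cell cannot be told apart.

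**Figure D1:**
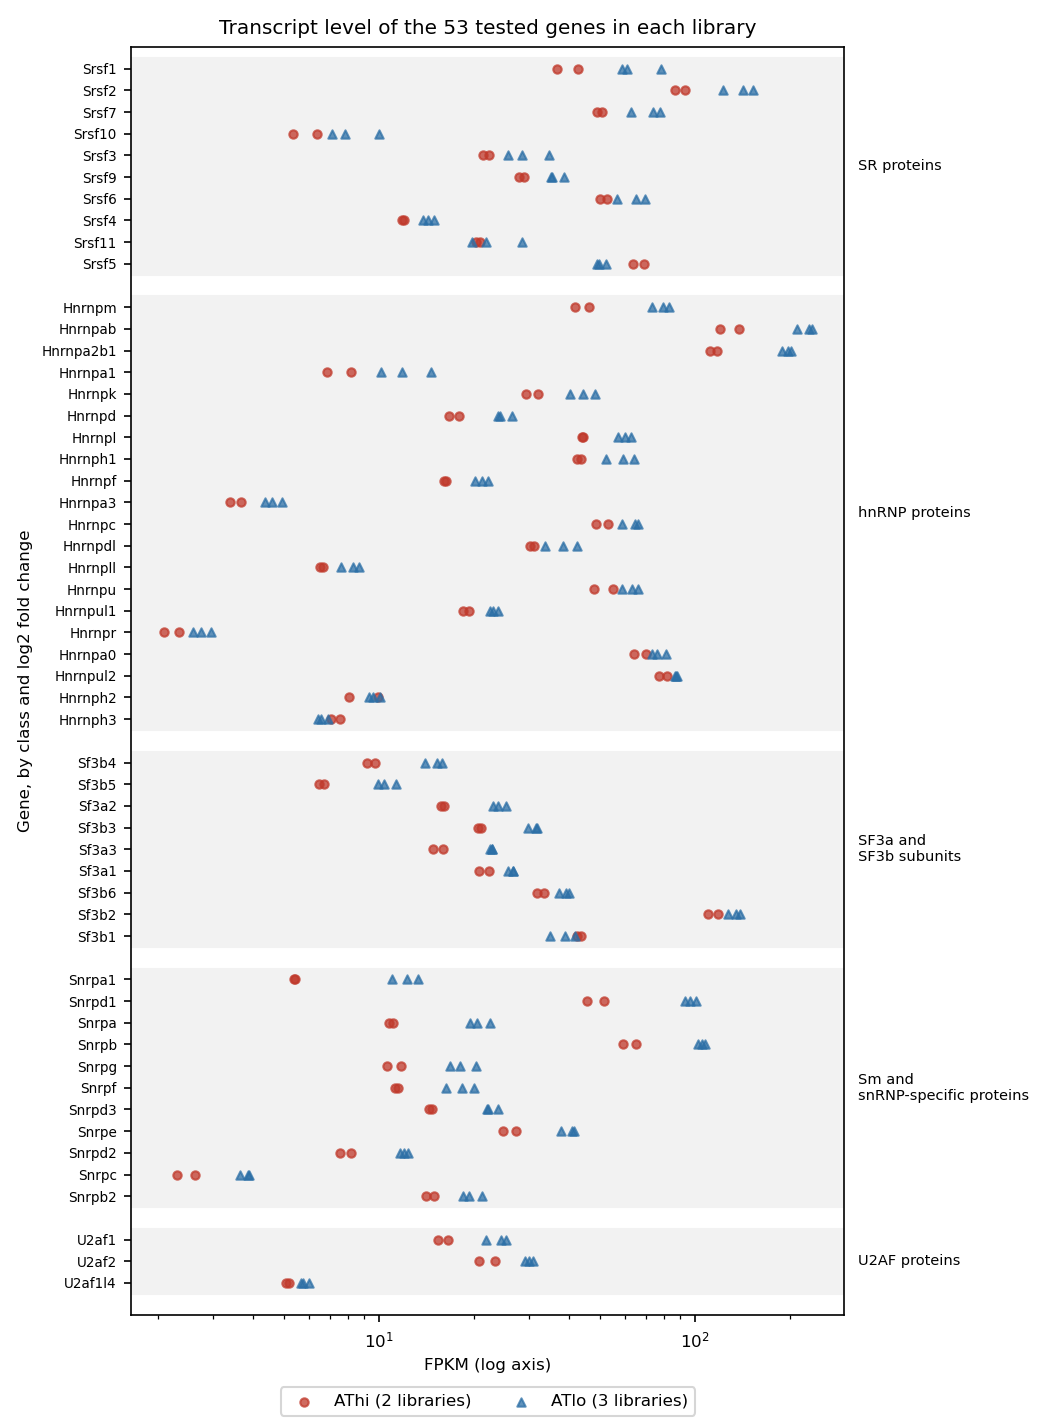
FPKM of the 53 tested genes in each library on a log axis, with genes grouped by class and ordered by log2 fold change. Circles are the 2 AThi libraries and triangles the 3 ATlo libraries. The circles lie left of all triangles in 48 genes, and right of them in Srsf5, Hnrnph3 and Sf3b1.

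The FPKM values implied depths of 27600000 to 44940000 reads in the total used for scaling, which need not be all reads sequenced. At these depths, 3 reads on a transcript of 1 kilobase correspond to 0.067 to 0.109 FPKM. This floor covers counting error only. Markers of ductal epithelium had a summed level of 3582 to 4246 FPKM in AThi and 3830 to 4510 FPKM in ATlo over 8 genes, most of it from Krt8, Krt18, Krt19 and Cdh1. Cldn4 was listed at 0 in AThi and was at 0.09 to 0.15 FPKM in ATlo, and Epcam was at 1.51 and 3.25 FPKM in AThi and 1.70 to 3.57 FPKM in ATlo. In the same list Sox9 rose by 1.01 and Krt7 fell by 0.67 on the log2 scale. Fibroblast, endothelial and endocrine lists each summed to at most 0.18 FPKM in any library. The 8 leukocyte markers summed to 8.79 and 14.8 FPKM in AThi and 4.37 to 4.63 FPKM in ATlo, nearly all of it Cd68, a lysosomal glycoprotein gene, with Adgre1 at 0 throughout. The acinar list summed to 10.39 and 11.31 FPKM in AThi and 12.01 to 13.26 FPKM in ATlo. Nearly all of it was Cela1, and Cpa1, Amy2a5 and Ptf1a were at 0 throughout. All 14 proliferation markers fell, with a summed level of 80.5 and 81.6 FPKM in AThi and 412 to 536 FPKM in ATlo. Of 17 immediate-early genes, which are known to respond to cell handling, 15 rose, with 4391 and 6871 FPKM in AThi and 1615 to 2559 FPKM in ATlo. Both lists move with the same groups as the splicing genes, and their part in the results was not tested.

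Promoter sequences were available from RefSeq (GRCm38.p6) for 48 of the 56 genes, as windows from 250 bases before to 50 after a start. Hnrnpll, Hnrnpul2, Sf3b4, Sf3b5, Snrpb, Snrpd1, Snrpert and U2af2 had none. The promoters of 4 genes are shown because they carry the results below: Snrpa1 and Snrpa, with the largest falls among genes with a window, Sf3a2 from the SF3 class, and Srsf5, the gene that rose. The first 250 bases of each window are printed 5′ to 3′ on the gene's strand, at chr7:66060086-66060335 (plus strand), chr7:27196272-27196521 (minus strand), chr10:80798485-80798734 (plus strand) and chr12:80945249-80945498 (plus strand). Capitals mark CACGTG, the E-box, and CCGGAAG or its reverse complement CTTCCGG, letters that ETS factors prefer.
Snrpa1: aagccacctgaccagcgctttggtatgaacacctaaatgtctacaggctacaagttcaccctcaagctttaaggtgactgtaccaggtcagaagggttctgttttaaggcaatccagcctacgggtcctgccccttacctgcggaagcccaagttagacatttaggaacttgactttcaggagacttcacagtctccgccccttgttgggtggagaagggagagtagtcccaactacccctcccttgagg
Snrpa: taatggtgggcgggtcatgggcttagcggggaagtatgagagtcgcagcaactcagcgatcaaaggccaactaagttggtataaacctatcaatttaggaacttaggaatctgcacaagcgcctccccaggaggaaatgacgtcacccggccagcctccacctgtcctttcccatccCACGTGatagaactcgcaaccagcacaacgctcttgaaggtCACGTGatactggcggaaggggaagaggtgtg
Sf3a2: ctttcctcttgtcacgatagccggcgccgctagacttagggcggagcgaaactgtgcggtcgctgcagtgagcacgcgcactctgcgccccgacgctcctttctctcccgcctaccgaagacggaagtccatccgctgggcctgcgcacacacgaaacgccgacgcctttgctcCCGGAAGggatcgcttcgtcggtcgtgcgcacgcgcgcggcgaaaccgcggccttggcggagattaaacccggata
Srsf5: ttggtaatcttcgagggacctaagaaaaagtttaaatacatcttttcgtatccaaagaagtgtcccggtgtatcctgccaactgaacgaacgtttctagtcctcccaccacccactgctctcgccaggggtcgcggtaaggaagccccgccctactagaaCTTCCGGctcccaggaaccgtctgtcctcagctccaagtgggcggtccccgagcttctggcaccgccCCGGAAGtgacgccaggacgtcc
No letters of the 4 motifs searched were found in the Snrpa1 stretch. The Snrpa stretch held the E-box at -73 and -32 from the start, Sf3a2 held the ETS-like letters at -76, and Srsf5 held them at -90 and -23. The ETS-like letters were therefore in the window of a gene that fell and in that of the gene that rose. The RefSeq starts of Snrpa1 and Sf3a2, and the stretches printed for them, lie inside the genes' bounds in GENCODE.

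Each motif was searched on both strands of the whole windows, and a gene counted where any of its windows held it. The ETS-like letters were in 16 of the 48 genes, or 33.3%, against 21.9% of the 8587 tested genes with a window and 9.93% of all 27025 genes with one. They were in 6 of 7 SF3a and SF3b genes, 4 of 11 SR, 4 of 10 Snrp, 2 of 18 hnRNP and 0 of 2 U2AF genes. The E2F-like letters GCGGGAA, or TTCCCGC on the other strand, were in 9 genes, or 18.8%, against 10.3% of tested and 5.29% of all genes. The NRF1-like letters GCATGCG, or CGCATGC, were in 6 genes, or 12.5%, against 7.74% and 4.01%. The E-box was also in 6 genes, or 12.5%, against 12.2% and 8.09%. Some genes have several windows, 10 of the 48 among them. A match describes the letters only.

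The Sm and snRNP-specific genes fell throughout. The counts of this and the other classes stand against 29.4% lower and 22.2% higher among all genes tested. All 11 tested genes of this class fell, with log2 fold changes between -1.10 and -0.43 and a median of -0.65, and all 11 kept the call with any 1 library left out. Their summed level was 217 and 214 FPKM in AThi, against 357, 380 and 374 FPKM in ATlo, a ratio of 0.582.

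The largest change was in Snrpa1, which encodes a protein particular to the U2 snRNP. It was at 5.40 and 5.43 FPKM in AThi, against 11.04, 13.33 and 12.28 FPKM in ATlo. The AThi libraries were almost equal and lay far under the lowest ATlo library. Its log2 fold change was -1.10 ± 0.09 (SE), with an adjusted p of 0.000149 in limma. Snrpa1 lies on chromosome 7 (66059003 to 66074587, plus strand) of GRCm38. Snrpa, the U1 snRNP protein that binds a stem-loop of U1 RNA, was at 10.79 and 11.06 FPKM in AThi, against 22.56, 19.49 and 20.54 FPKM in ATlo. The groups were again well apart, at -0.90 ± 0.08 (SE) and an adjusted p of 0.000195. The other specific proteins fell less: Snrpc, of the U1 snRNP, by 0.54 and Snrpb2, the partner of Snrpa1 on U2 RNA, by 0.43 on the log2 scale.

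The Sm ring, common to the spliceosomal snRNPs apart from U6, was lower in every tested subunit. Snrpd1, for SmD1, was at 51.51 and 45.68 FPKM in AThi, against 93.49, 100.67 and 96.74 FPKM in ATlo, or -0.99 ± 0.08 (SE) with an adjusted p of 0.000128. Snrpb, for SmB, had the highest level of the class, with 59.41 and 65.27 FPKM in AThi, against 102.73, 105.22 and 107.78 FPKM in ATlo. No AThi library came near an ATlo library in either gene. Snrpb changed by -0.75 ± 0.07 (SE), with an adjusted p of 0.000241. Snrpe, for SmE, was at 27.25 and 24.81 FPKM in AThi, against 37.62, 41.04 and 41.53 FPKM in ATlo, or -0.61 ± 0.07 (SE). Snrpg, Snrpf, Snrpd3 and Snrpd2 changed by -0.69, -0.65, -0.62 and -0.59. The 7 Sm subunits, which stand in equal numbers in a ring, thus had log2 fold changes between -0.99 and -0.59. Their mean level in ATlo lay between 12.1 FPKM for Snrpd2 and 105 FPKM for Snrpb. These levels rest on gene lengths and a multimapping rule that are not known, so the spread between subunits is uncertain. Of the Snrpf exon bases, 85.4% lie under exons of a gene on the other strand, and the strand setting of the counting is not known, so its value is uncertain.

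**Figure D2:**
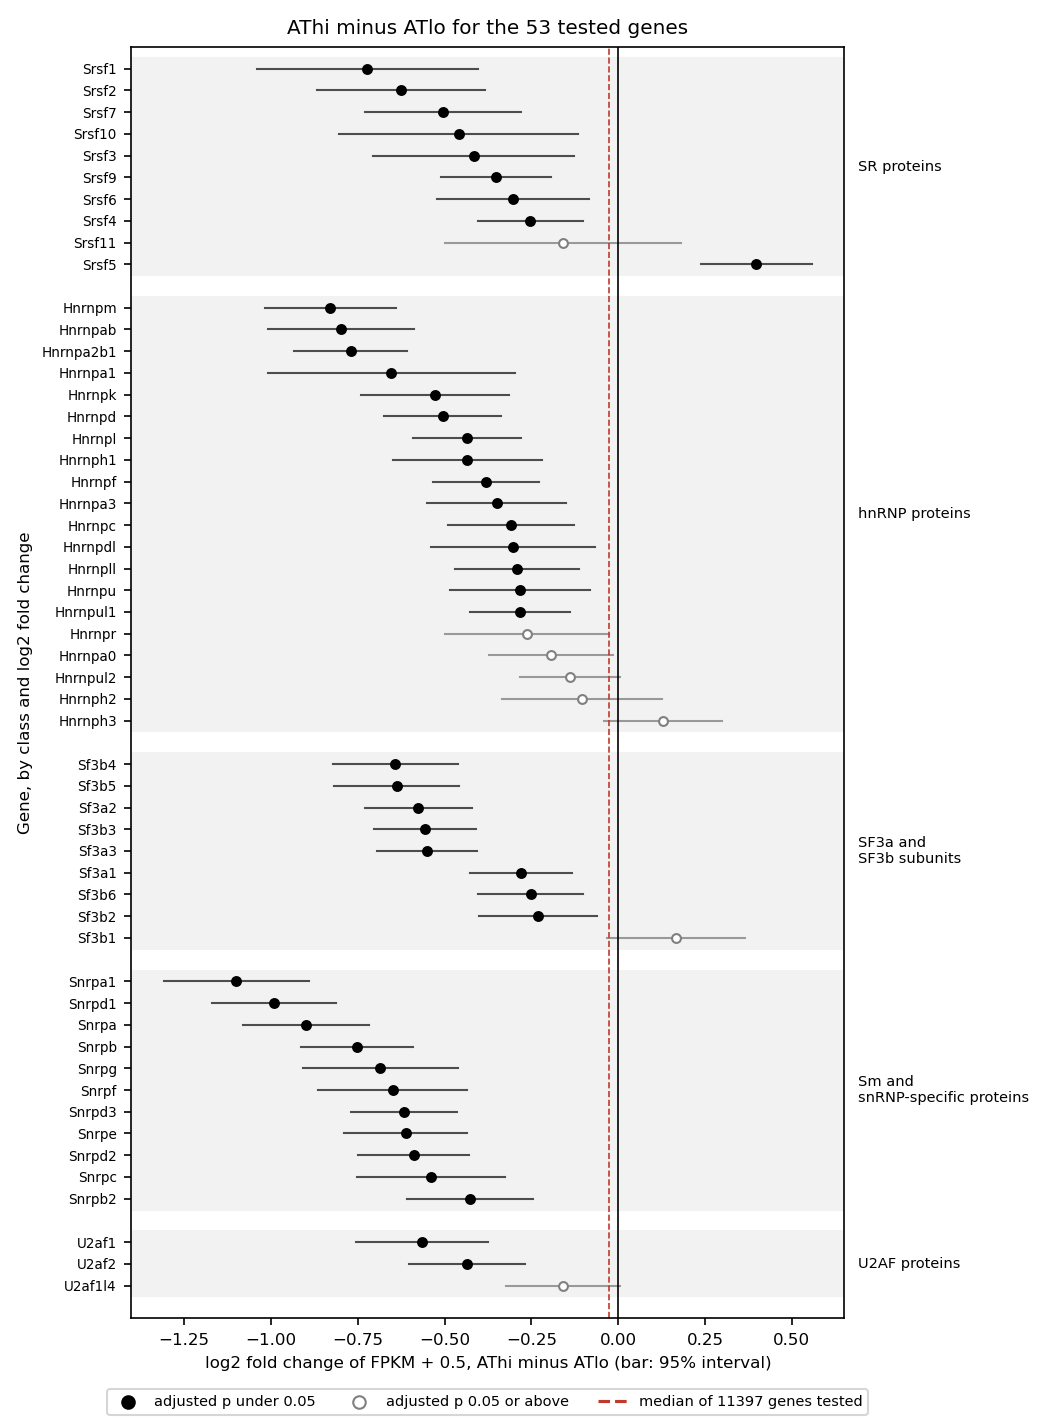
Log2 fold change of FPKM + 0.5, AThi minus ATlo, for the 53 tested genes, with the 95% interval from limma. Filled points have an adjusted p under 0.05. Snrpa1 has the lowest value, at -1.10, and Srsf5 the highest, at 0.40, and the dashed line is the median of all genes tested, at -0.03.

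Among SF3a and SF3b subunits, 8 of 9 fell, and Sf3b1 did not pass. The median was -0.55, and the class summed to 286 and 273 FPKM in AThi, against 342, 336 and 345 FPKM in ATlo, a ratio of 0.820. Without AThi replicate 2, 5 of the 8 falls remained, and Sf3a1, Sf3b6 and Sf3b2 missed the threshold. Sf3b2, which lost its call most often, is also the most abundant member, so the sum of the class moved less than its median.

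Sf3b4, a subunit that binds pre-mRNA near the branch point, was at 9.74 and 9.16 FPKM in AThi, against 15.26, 13.97 and 15.90 FPKM in ATlo. Its log2 fold change was -0.64 ± 0.08 (SE), with an adjusted p of 0.000668. The small subunit gene Sf3b5 was at 6.73 and 6.46 FPKM in AThi, against 9.94, 11.31 and 10.42 FPKM in ATlo, or -0.64 ± 0.08 (SE). Both genes separated the groups by a wide gap. Sf3a2, an SF3a subunit, was at 16.10 and 15.80 FPKM in AThi, against 25.25, 23.00 and 23.84 FPKM in ATlo, or -0.58 ± 0.06 (SE), with an adjusted p of 0.000541. Sf3b3, a scaffold subunit that carries beta-propellers, and Sf3a3 changed by -0.56 and -0.55, and Sf3a1 by -0.28.

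The abundant subunits differed from this. Sf3b2 was at 118.42 and 109.82 FPKM in AThi, against 139.27, 127.94 and 134.79 FPKM in ATlo. It fell by 0.23 on the log2 scale with an adjusted p of 0.0322, a call that stood in only 1 of the 5 fits on 4 libraries. Sf3b6, whose product contacts the branch point adenosine, was at 33.36 and 31.73 FPKM in AThi, against 39.30, 40.11 and 37.20 FPKM in ATlo, or -0.25 ± 0.06 (SE). Sf3b1, the largest SF3b subunit and the one most often mutated in myelodysplasia in humans, was at 42.54 and 43.68 FPKM in AThi, against 34.86, 38.86 and 41.68 FPKM in ATlo. Its AThi libraries lay above all ATlo libraries, the highest of which was close to them. The log2 fold change was 0.17, with a 95% interval of -0.03 to 0.37 and an adjusted p of 0.139.

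Both partners of the U2AF dimer fell. U2af1, the small subunit that reads the AG at the end of the intron, was at 16.53 and 15.44 FPKM in AThi, against 21.92, 25.38 and 24.43 FPKM in ATlo, or -0.56 ± 0.08 (SE) with an adjusted p of 0.00138. U2af2, the large subunit that binds the polypyrimidine tract, was at 20.78 and 23.30 FPKM in AThi, against 29.12, 30.74 and 29.92 FPKM in ATlo, or -0.43 ± 0.07 (SE) with an adjusted p of 0.00243. Both calls were kept with any 1 library left out. U2af1l4, a paralogue of U2af1, was at 5.08 and 5.21 FPKM in AThi, against 5.67, 6.01 and 5.74 FPKM in ATlo. The groups did not overlap, but the adjusted p was 0.0926, with an interval of -0.32 to 0.00 for the log2 fold change. Of its exon bases, 65.6% lie under exons of another gene on the same strand, so its values are uncertain. U2af1 and U2af2 shared 21.65% and 14.68% of their stretches of 50 bases with genes at other loci, so their values are uncertain too.

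The SR class was the one with a called change in each direction. Of 10 tested genes, 8 fell and 1 rose, while Srsf11 missed the threshold. The median was -0.38. Their summed level was 382 and 390 FPKM in AThi, against 452, 505 and 552 FPKM in ATlo, a ratio of 0.768. The spread among ATlo libraries was wide here, and replicate 3 was the highest ATlo library in 8 of the 10 genes. This was not particular to the SR class. Replicate 3 was also the highest ATlo library in 15 of 20 hnRNP and 5 of 9 SF3a and SF3b genes. It was so in 4 of 11 Snrp and 0 of 3 U2AF genes. Srsf10, Srsf3, Srsf6 and Srsf4 lost their call with some libraries left out: 4 of the 8 falls remained without AThi replicate 1 and also without AThi replicate 2, and 5 without ATlo replicate 2. In the fit with no filter on low values, 5 SR genes fell.

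Srsf1, the founding SR protein and a known oncogene in mouse and human cells, was at 42.59 and 36.54 FPKM in AThi, against 58.75, 61.00 and 78.19 FPKM in ATlo. Its log2 fold change was -0.72 ± 0.13 (SE), with an adjusted p of 0.00418. Srsf2, which binds exonic enhancers rich in G and C, had the highest level of the class, with 86.64 and 92.90 FPKM in AThi, against 122.77, 142.00 and 153.24 FPKM in ATlo. Neither gene overlapped between the groups, and ATlo replicate 3 was the highest library in both. Srsf2 changed by -0.63 ± 0.10 (SE), with an adjusted p of 0.00249. Srsf7, which also takes part in mRNA export, was at 49.13 and 50.91 FPKM in AThi, against 63.06, 73.61 and 77.62 FPKM in ATlo, or -0.50 ± 0.10 (SE) with an adjusted p of 0.00452. Srsf9 changed by -0.35, and these 4 genes kept their calls with any 1 library left out.

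Srsf10, known to repress splicing when dephosphorylated, and Srsf3 and Srsf4 changed by -0.46, -0.42 and -0.25. Srsf6 was at 50.07 and 52.69 FPKM in AThi, against 56.85, 64.99 and 69.39 FPKM in ATlo. It fell by 0.30 with an adjusted p of 0.0299, and missed the threshold when values were rescaled to TPM, with an adjusted p of 0.0597, and when libraries were centred on the median gene, with 0.0529. Srsf11 was at 20.92 and 20.35 FPKM in AThi, against 19.70, 21.92 and 28.51 FPKM in ATlo. Its groups overlapped, and the interval of its log2 fold change was -0.50 to 0.18.

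Srsf5, an SR protein gene first described as an insulin-induced transcript in rat liver cells, rose. It was at 64.01 and 69.34 FPKM in AThi, against 48.94, 52.49 and 49.97 FPKM in ATlo. Both AThi libraries were above every ATlo library, which lay close together. The log2 fold change was 0.40 ± 0.07 (SE), with an adjusted p of 0.00290, and the call was kept with any 1 library left out and at an adjusted p under 0.01. Srsf5 held 17.3% of the summed FPKM of the SR class in AThi, against 10.0% in ATlo, while Srsf2 held 23.3% in AThi and 27.7% in ATlo. It lies on chromosome 12 (80945504 to 80950507, plus strand) of GRCm38.

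**Figure D3:**
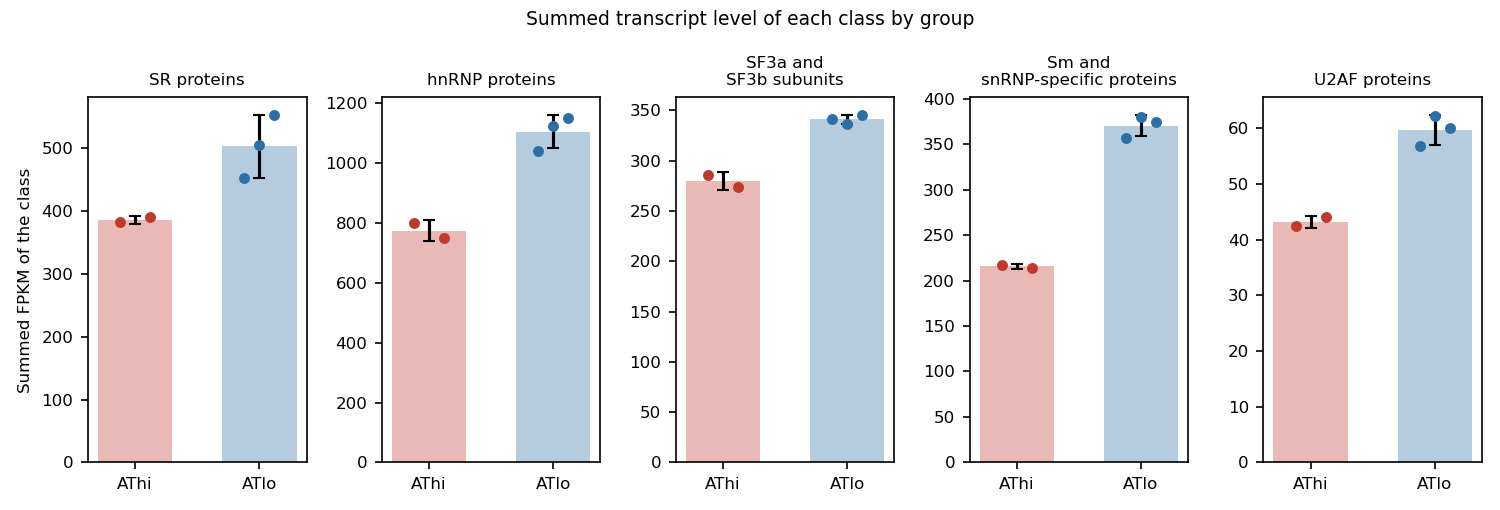
Summed FPKM of each class, with bars for the group mean, error bars for the SD and points for the libraries (2 AThi, 3 ATlo), each axis starting at 0. AThi is below ATlo in every class, with ratios of means between 0.582 for the Sm and snRNP-specific genes and 0.820 for the SF3a and SF3b subunits.

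Of the 20 hnRNP genes, 15 fell and 5 missed the threshold, where 29.4% of all genes tested fell. The median was -0.33. Their summed level was 799 and 750 FPKM in AThi, against 1041, 1123 and 1149 FPKM in ATlo, a ratio of 0.701. Without AThi replicate 2, 9 of the 15 falls remained, which left out Hnrnpa1, Hnrnpa3, Hnrnpc, Hnrnpdl, Hnrnpll and Hnrnpu.

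Hnrnpm, which binds GU-rich RNA, was at 41.85 and 46.20 FPKM in AThi, against 73.28, 83.00 and 79.63 FPKM in ATlo. It had the largest change of the class, -0.83 ± 0.08 (SE), with an adjusted p of 0.000302. Hnrnpab, which binds AU-rich RNA, had the highest level of all 56 genes, with 138.32 and 120.42 FPKM in AThi, against 211.24, 234.77 and 229.36 FPKM in ATlo. The gap between the groups was far wider than the spread within either. Hnrnpab changed by -0.80 ± 0.09 (SE), with an adjusted p of 0.000507. Hnrnpa2b1, a reader of UAG-containing RNA and a factor of mRNA transport, was at 117.72 and 111.62 FPKM in AThi, against 188.89, 197.05 and 202.23 FPKM in ATlo, or -0.77 ± 0.07 (SE) with an adjusted p of 0.000222. These 3 genes kept their calls with any 1 library left out.

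Among the others, Hnrnpa1, an antagonist of Srsf1 in splice site choice, changed by -0.65. Hnrnpk, which binds C-rich RNA, changed by -0.53, Hnrnpd, a regulator of AU-rich mRNA decay, by -0.51, and Hnrnpl, which binds CA repeats, by -0.44. Hnrnph1 and Hnrnpf, which bind runs of G, changed by -0.43 and -0.38. Hnrnpa3, Hnrnpc, Hnrnpdl, Hnrnpll, Hnrnpu and Hnrnpul1 fell by between 0.28 and 0.35 on the log2 scale.

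The 5 hnRNP genes that did not pass included abundant ones. Hnrnpul2 was at 81.55 and 77.13 FPKM in AThi, against 86.60, 87.60 and 87.80 FPKM in ATlo, with a log2 fold change of -0.14, an interval of -0.28 to 0.01 and an adjusted p of 0.0955. Hnrnpa0 and Hnrnpr had values of -0.19 and -0.26, with adjusted p-values of 0.0676 and 0.0632. Within the H and F family, Hnrnph2 had an interval of -0.33 to 0.13, and Hnrnph3 was at 7.56 and 7.05 FPKM in AThi, against 6.42, 6.57 and 6.93 FPKM in ATlo. The AThi values of Hnrnph3 were thus the higher ones without overlap, with an adjusted p of 0.172.

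Genes with copies elsewhere can lose reads in counting. Measured in the GENCODE M21 transcripts, 42 of the 56 genes shared at least 1 stretch of 50 bases with the transcript of a gene at another locus. Hnrnpa1 shared 28.2% of its stretches with 20 other genes and Hnrnpa3 27.0% with 45, so the values of both are uncertain. Hnrnpf and Sf3b4 shared more, 43.2% and 43.6%, and their values are uncertain as well. Of 34 tested genes with under 5% shared, a limit set after the values were seen, 27 fell, with a median of -0.39, and of the other 19, 17 fell, with a median of -0.54. Srsf5, with 10.1% shared with 34 other genes, is among the 19. Exons of other genes on the opposite strand cover 43.0% of the exon bases of Srsf4, 29.1% of those of Hnrnpab, 26.5% of those of Hnrnpf and 25.3% of those of Srsf2, whose values share the doubt given for Snrpf. Exons of another gene on the same strand cover 27.3% of the exon bases of Snrpn and 14.7% of those of Hnrnpm.

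Further parts of the machinery were followed in 10 lists, in which the largest called changes and the most abundant gene are named, and a few more genes chosen after their values were seen. Their counts stand against 29.4% lower and 22.2% higher among all genes tested. The LSm proteins, most of which form the ring of U6 snRNP or of mRNA decay, were nearest to the Sm genes: 8 of 11 fell, 0 rose, and the median was -0.58. Lsm4 was at 43.59 and 46.59 FPKM in AThi, against 99.36, 108.85 and 99.08 FPKM in ATlo, or -1.17 ± 0.07 (SE). The 2 groups were far apart. Lsm10 and Lsm11, of the U7 snRNP that processes histone mRNA, and Lsm14a, of cytoplasmic granules, did not pass, with adjusted p-values of 0.602, 0.983 and 0.620. Of 15 other snRNP proteins, 10 fell and 0 rose, with a median of -0.32. Snrnp25, of the minor spliceosome, was at 10.10 and 10.85 FPKM in AThi, against 21.69, 22.81 and 22.46 FPKM in ATlo, or -1.06 ± 0.06 (SE), whereas the helicase gene Snrnp200, the most abundant of the list, had a value of -0.07 and an adjusted p of 0.376.

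Of 30 PRP factors and PRP19 complex genes, 13 fell and 2 rose, a share of calls close to the 51.6% of all genes tested, with a median of -0.13. Eftud2, the GTPase of the U5 snRNP, fell most, at 16.22 and 15.42 FPKM in AThi, against 27.17, 28.23 and 27.24 FPKM in ATlo. Prpf40b, a U1-associated factor, rose by 0.38, and Cwc22, the most abundant, did not pass, with an adjusted p of 0.295. Of 13 helicases, 7 fell and 1 rose, with a median of -0.23. Ddx41 changed by -0.56 and Ddx17, a co-regulator of splicing and transcription, by 0.23, while its paralogue Ddx5, the most abundant, had a value of 0.17 and an adjusted p of 0.0693.

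Of 16 branch point, U2 and U1 partners, 7 fell and 2 rose, with a median of -0.16. Phf5a, an SF3b subunit with another kind of symbol, was at 25.81 and 26.71 FPKM in AThi, against 49.06, 48.55 and 46.88 FPKM in ATlo, or -0.86 ± 0.06 (SE). Zrsr1, a U2AF1-related gene, went the other way, at 5.21 and 4.72 FPKM in AThi, against 2.61, 2.39 and 2.07 FPKM in ATlo, or 0.94 ± 0.11 (SE). Puf60, the most abundant of this list, fell by 0.32 on the log2 scale.

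Of 18 genes of snRNP assembly, 17 were tested, 10 fell and 0 rose, with a median of -0.29. Ncbp1, the large subunit of the nuclear cap-binding complex, changed by -0.99, Strap, a partner of the SMN complex and the most abundant, by -0.74, and Smn1 itself by -0.70. Of 13 genes of the exon junction complex and nonsense-mediated decay, 7 fell and 2 rose, with a median of -0.30. The core subunit gene Magohb and its paralogue Magoh, the most abundant of the list, changed by -0.77 and -0.65, and the endonuclease gene Smg6 by 0.42.

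Of 10 tested SR protein kinases and phosphatases, 3 rose and 2 fell, a share of calls close to the 51.6% of all genes, with a median of -0.03. The kinase genes Dyrk1b, Srpk2 and Clk1 rose by 0.65, 0.63 and 0.41, while Srpk1 and the phosphatase gene Ppm1g, the most abundant, changed by -0.51 and -0.80. Srpk1 and Srpk2, which both phosphorylate SR proteins in the cytoplasm, thus moved in opposite directions. Of 19 SR-related genes tested, 6 fell and 2 rose, a share of calls below 51.6%, with a median of -0.05. These counts depended on single libraries: 4 calls were made without AThi replicate 1, 1 without AThi replicate 2, and 3 each without ATlo replicate 2 and without ATlo replicate 3. Rnps1 changed by -0.67 and Nktr by 0.28, and Srrm2, the most abundant, had an adjusted p of 0.217.

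Of 46 other RNA-binding regulators, 36 were tested, 22 fell and 4 rose, with a median of -0.29. Without AThi replicate 2, 16 calls were made in this list. Tardbp, which guards against cryptic exons, was at 21.04 and 17.99 FPKM in AThi, against 30.50, 33.13 and 37.26 FPKM in ATlo, or -0.77 ± 0.10 (SE). Ybx1, the most abundant, changed by -0.62, as did Ptbp1, the polypyrimidine tract repressor, by -0.63. Cirbp, a cold-inducible RNA-binding protein gene, rose by 0.51 and Rbm5 by 0.42. Rbfox2, a regulator of epithelial and mesenchymal exons, rose by 0.39 and Rbm47 by 0.26. Esrp2 and Rbm3 were among the 22 genes that fell, with log2 fold changes of -0.46 and -0.45.

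**Figure D4:**
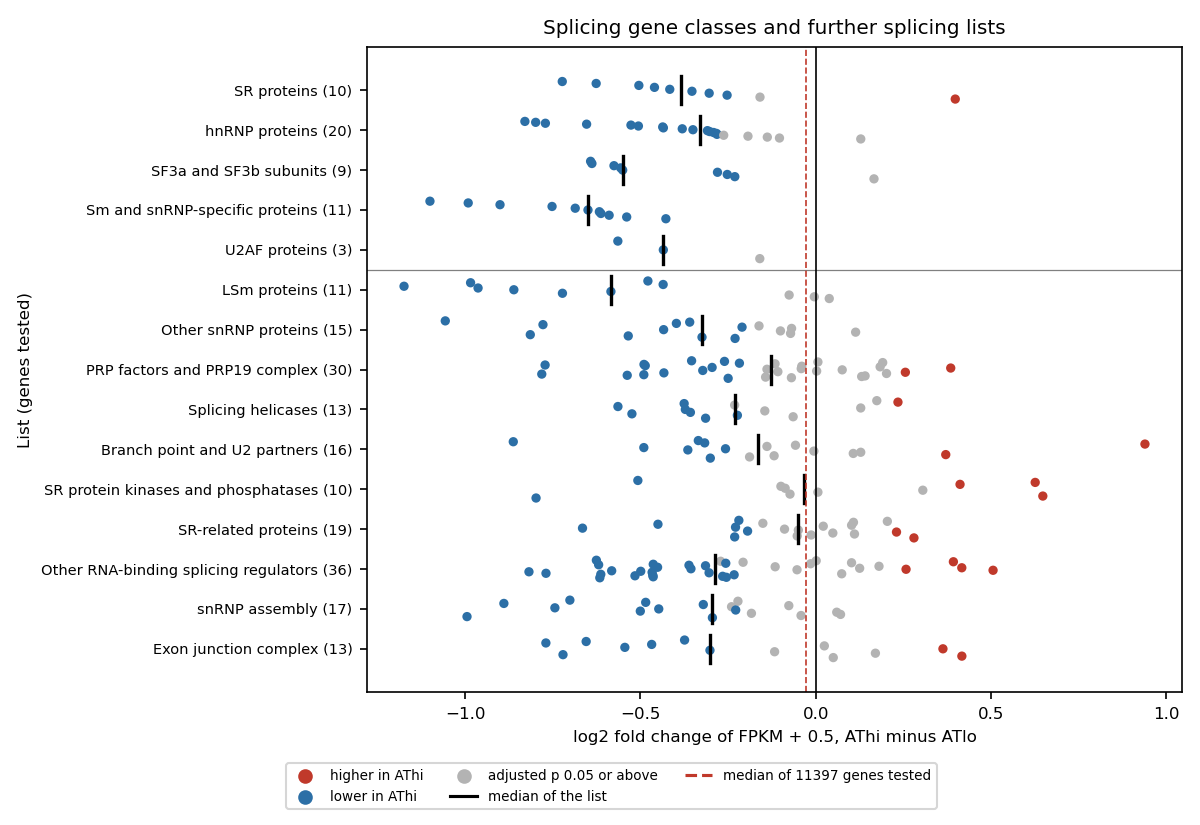
Log2 fold change of FPKM + 0.5, AThi minus ATlo, for the tested genes of the 5 classes (above the line) and of 10 further splicing lists, with the number of genes tested in brackets. Bars are the list medians, the lowest of which are -0.65 for the Sm and snRNP-specific genes and -0.58 for the LSm proteins, and the dashed line is the median of all genes tested, at -0.03.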

How the data were processed

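Messenger RNA was measured in 2 AThi and 3 ATlo libraries made with a stranded kit, per the labels' protocols. The FPKM values were deposited by the authors in 1 table, rounded to 2 decimals. STAR, featureCounts, bcl2fastq and DESeq2 are listed, with mm10 and GRCm38, in the submitters' processing notes. The sources used here give no versions, annotation, strand setting, rule for multimapping reads or FPKM formula. The values are relative within a library, and a count test could not be used.

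A two-sided moderated test from limma 3.58.1 (R 4.3.3, trended prior) was run on log2(FPKM + 0.5) for the 11397 genes whose mean reached 1 FPKM. Group was the only term, with 3 residual degrees of freedom, and p-values were adjusted by Benjamini and Hochberg's method. This scale understates changes of low genes. The fit was also run on simulated data in which far fewer genes changed than were called here, so that run does not test the error rate of these calls. Depth was read from FPKM times length of unspliced genes no longer than 200 nucleotides, which fell on whole multiples of 1 step in 99.7 to 100% of values (tolerance 0.1 of a step). Lengths and coordinates (1-based) came from GENCODE M21. Members with per-library values were, in each class, the 3 with the highest mean level and the 3 largest called changes in each direction. In each further list, the largest called changes and the most abundant gene are named, except for a gene that is not reported here. Srsf11, Hnrnph3, further genes of the lists, and Snurf and Snhg14, were chosen after their values were seen. The members and lists were chosen with earlier results of these data known. Alternatives covered the pseudocount, filter, scaling, moderation, replicate block, threshold and each library left out.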

Additional observations from a re-analysis of the deposited data

How the results depend on the processing

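None of the 23 members named by the class rule had a called fold change that reversed under the alternatives run. Of 345 values for these genes, 326 kept their side of the threshold, 18 lost it (Srsf6, Sf3b2 and Sf3b6) and 1 gained it. Between 38 and 44 members fell with other pseudocounts, filters, scalings and moderation, 43 with the replicate block and 32 at an adjusted p under 0.01. With 1 library left out, 31 to 43 fell and 1 rose, with 4 to 8 falls in SR genes, 9 to 15 in hnRNP genes and 5 to 8 in SF3a and SF3b genes. The calls in lists were then 1 to 8 for SR-related genes and 16 to 25 for other RNA-binding regulators. With no filter 5 SR genes fell. At an adjusted p under 0.01, where fewer calls are made by construction, 3884 genes passed, and 4 SR and 9 hnRNP genes fell, with 5 calls among helicases and 2 among SR-related genes. Median-centring left 4 SR-related calls. Replicates 1 and 2 share a number and the first digits of a library code in both groups. The deviations of same-numbered libraries correlated at 0.20 and 0.30 across genes, and those of the crossed libraries at -0.20 and -0.30. With 2 AThi libraries, the crossed values are fixed by the others. Over only 2 pairs, these values cannot decide whether the samples were paired, and the main fit used no pairing. With the replicate block, 2 members rose, 1 of them in the SF3 class (Sf3b1, 0.23, adjusted p 0.0438), and 5 SR-related calls were made, and the cause was not tested. The block left 1 residual degree of freedom. Differences near 0.2 on the log2 scale lie at the limit of 5 libraries, and genes sharing sequence with other loci are uncertain at any depth.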

Other observations

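Ratios of genes within a library do not depend on its scaling, and 4 such ratios, chosen after the values were seen, are given with no test. Srsf5 stood to Srsf1 at 1.503 and 1.898 in AThi, against 0.833, 0.860 and 0.639 in ATlo. Srsf5 stood to Srsf2 at 0.739 and 0.746 in AThi, against 0.399, 0.370 and 0.326 in ATlo. Within the SF3b complex, Sf3b1 stood to Sf3b3 at 2.07 in both AThi libraries, against 1.18, 1.24 and 1.31 in ATlo. Between the U1 protein gene Snrpa and its close relative in the U2 snRNP, Snrpb2, the ratio was 0.724 and 0.786 in AThi, against 1.216, 1.010 and 0.967 in ATlo. In none of the 4 ratios did the groups overlap. For the ratios with Srsf5 or Sf3b1 this was fixed in advance by the single genes. Srsf5 and Sf3b1 were each higher in AThi without overlap, and Srsf1, Srsf2 and Sf3b3 were each lower without overlap. Values of single genes did not overlap in 70.3% of all genes tested.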
